A study of Mus musculus with 4 samples.

Results

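Cholesterol and fatty acid synthesis was followed through 30 genes of the sterol and fatty acid pathways, out of 35905 genes with a transcript in the files. The members were chosen by name, as genes of these pathways linked to the SREBP transcription factors, 22 in a sterol arm and 8 in a fatty acid arm, and all 30 were among the 13718 genes abundant enough to test. The choice was made with earlier results of these data known. RNA was sequenced from Lewis lung carcinoma (LLC) cells, a line from a mouse lung tumour, that carried TdTomato and had grown under the skin of C57BL/6 mice for 4 weeks. Cells with TdTomato and without the leukocyte antigen CD45 were sorted from the tumours. Hosts of both groups carried Padi4 fl/fl. The WT group had no Cre (Mrp8Cre-) and the PAD4-DN group was Mrp8Cre+. Mrp8Cre is driven by a promoter active in neutrophils, so Padi4 was deleted in host cells and not in the sorted cancer cells. The age of the hosts is not given in the sources used here. Each group had 2 libraries, with 23414984 and 25327974 estimated counts for WT and 20036322 and 24142484 for PAD4-DN. Whether the libraries of a group came from separate animals is not stated, so a p-value here speaks only of the spread among the libraries, which may be technical.

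Cells make cholesterol from acetyl-CoA through the mevalonate pathway, squalene and a series of sterol intermediates, and they make fatty acids from the same precursor. Both routes are driven by the sterol regulatory element-binding proteins. SREBP2, the product of Srebf2, acts mostly on sterol genes, and the SREBP1 forms from Srebf1 act mostly on fatty acid genes. When membrane sterol is low, SCAP carries the precursors to the Golgi, where proteases release the active factor, and when sterol is high, INSIG proteins hold the complex back. Proliferating tumour cells use both products for membranes.

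Padi4 itself was near absent, with counts of 0 and 2 for WT and of 6 and 0 for PAD4-DN, and these sorted cells do not check the deletion, which lies in host cells. Values are given for replicate 1 and then replicate 2 of each group, WT before PAD4-DN. The libraries differed from each other in ways that crossed the genotypes. The collagen gene Col1a1, which stromal fibroblasts express, was at 16.0 and 531 CPM (counts scaled to a library of 1000000, with TMM library sizes) in WT replicates 1 and 2 and at 652 and 16.9 CPM in PAD4-DN replicates 1 and 2. The 10 macrophage and monocyte markers summed to 52.4 and 51.8 CPM in WT and to 101 and 19.6 CPM in PAD4-DN. The leukocyte gene Ptprc, which encodes CD45, was at 2.20 and 1.71 CPM in WT tumours, against 5.42 and 0.713 CPM in PAD4-DN tumours. Of the epithelial markers, Krt8 ran from 162 to 217 CPM, while Epcam and Cdh1 were at 0.342 CPM or less and Cldn4 had 0 counts in every library.

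Promoters of 4 members are shown first, because factors that bind such motifs are known to act with SREBP and because these genes cover the steps described later: Hmgcs1 and Idi1 the mevalonate steps, Msmo1 the late sterol steps and Fasn fatty acid synthesis. The sequences are the 250 bases before the RefSeq start of each gene on build GRCm38.p6, which is not the build named for the files (GRCm39). They lie at chr13:119690101-119690350 (plus strand), chr13:8885356-8885605 (plus strand), chr8:64733579-64733828 (minus strand) and chr11:120824548-120824797 (minus strand) in this order. Capitals mark CCAAT, the NF-Y motif, on either strand (ATTGG on the other strand), and in Hmgcs1 also the form TCACNCCAC of the sterol regulatory element.
Hmgcs1: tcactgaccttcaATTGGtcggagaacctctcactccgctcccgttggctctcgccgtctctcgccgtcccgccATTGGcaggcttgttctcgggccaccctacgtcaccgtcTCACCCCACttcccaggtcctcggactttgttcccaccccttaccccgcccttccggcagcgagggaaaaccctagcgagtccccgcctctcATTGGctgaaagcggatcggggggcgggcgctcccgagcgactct
Idi1: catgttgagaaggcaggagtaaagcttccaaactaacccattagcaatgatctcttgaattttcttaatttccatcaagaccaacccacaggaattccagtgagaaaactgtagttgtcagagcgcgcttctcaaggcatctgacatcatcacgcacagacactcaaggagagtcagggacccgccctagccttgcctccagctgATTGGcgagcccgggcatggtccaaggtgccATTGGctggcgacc
Msmo1: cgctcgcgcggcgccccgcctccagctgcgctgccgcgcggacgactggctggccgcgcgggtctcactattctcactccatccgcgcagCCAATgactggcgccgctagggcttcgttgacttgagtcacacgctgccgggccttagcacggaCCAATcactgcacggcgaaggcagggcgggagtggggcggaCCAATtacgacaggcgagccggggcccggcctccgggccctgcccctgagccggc
Fasn: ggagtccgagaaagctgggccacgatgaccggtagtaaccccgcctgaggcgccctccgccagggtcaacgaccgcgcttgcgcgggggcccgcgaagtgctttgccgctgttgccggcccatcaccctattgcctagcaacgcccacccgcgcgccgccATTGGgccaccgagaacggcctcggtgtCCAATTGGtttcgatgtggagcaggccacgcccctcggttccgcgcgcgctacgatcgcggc

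The upstream window of Hmgcs1 held 1 match to TCACNCCAC and 3 to CCAAT, that of Idi1 held 2 to CCAAT, that of Msmo1 held 3, and that of Fasn held 3, of which a pair overlap as CCAATTGG. Over the RefSeq windows of 300 bases (250 before to 50 after the start), 24 of the 30 members had an entry, with 29 windows. CCAAT on either strand was in 22 of these 29 windows (75.9%), against 37.4% of all 32851 windows and 37.8% of the 12969 windows of genes tested. In the sterol arm it was in 17 of 21 windows, and in the fatty acid arm in 5 of 8. The Sp1 motif GGGCGG was in 21 of 29 windows (72.4%), against 35.7% of all windows and 60.3% of those of genes tested. TCACNCCAC was in 1 of 29 windows, against 1.24% of all. The shorter CACCCCAC, which overlaps it, was in 2 of 29, those of Hmgcs1 and Acat2, against 2.87%. A match describes the letters of the window and is not a shown binding site. Fdps, Fdft1, Sqle, Stard4, Scd1 and Scd2 were not matched in the promoter table.

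Levels differed widely among the members. On the TPM scale, which is corrected for transcript length, the stearoyl-CoA desaturase Scd2 was the most abundant, at 297 and 281 TPM in WT and 245 and 327 TPM in PAD4-DN. The farnesyl diphosphate synthase Fdps, at 97.5 and 120.5 TPM in WT and 70.3 and 147 TPM in PAD4-DN, and Scd1 followed by mean. The sterol reductase Tm7sf2 was the least abundant, at 2.71 and 3.93 TPM in WT and 2.13 and 4.05 TPM in PAD4-DN, from 50 to 98 estimated counts per library. Scd1 and Scd2 are close paralogs, and kallisto shares out reads that fit both by an estimate, so the split between them is uncertain. Summed over members, the sterol arm came to 772 and 897 TPM in WT and to 690.4 and 1112 TPM in PAD4-DN. The fatty acid arm came to 691 and 700.4 TPM in WT and to 560.0 and 748 TPM in PAD4-DN tumours. In both arms the PAD4-DN libraries lay on either side of the WT libraries.

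The comparison asked whether these genes differed in tumour cells from hosts whose neutrophils lack Padi4. None of the 30 members passed edgeR's quasi-likelihood test at an adjusted p of 0.05 over all 13718 genes, of which 0% passed. With DESeq2, which called 11 genes in all, and with limma-voom, which called 0, no member passed either. The smallest adjusted p among members was 0.988 by edgeR, and 2 members, Fasn and Srebf1, had an unadjusted p under 0.05, against 2.65% of genes tested (364 genes; 1.42% lower and 1.23% higher in PAD4-DN). Both were lower in PAD4-DN. The sterol arm had a median log2 fold change (PAD4-DN minus WT) of 0.0087, with 11 members above 0 and 11 below, beside a median of 0.0087 over all genes tested. The fatty acid arm had a median of −0.18, with 7 of 8 members below 0. Standard errors of the members ran from 0.13 to 0.43 on the log2 scale, so the 95% intervals were wide, as the plot of fold changes shows.

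**Figure D1:**
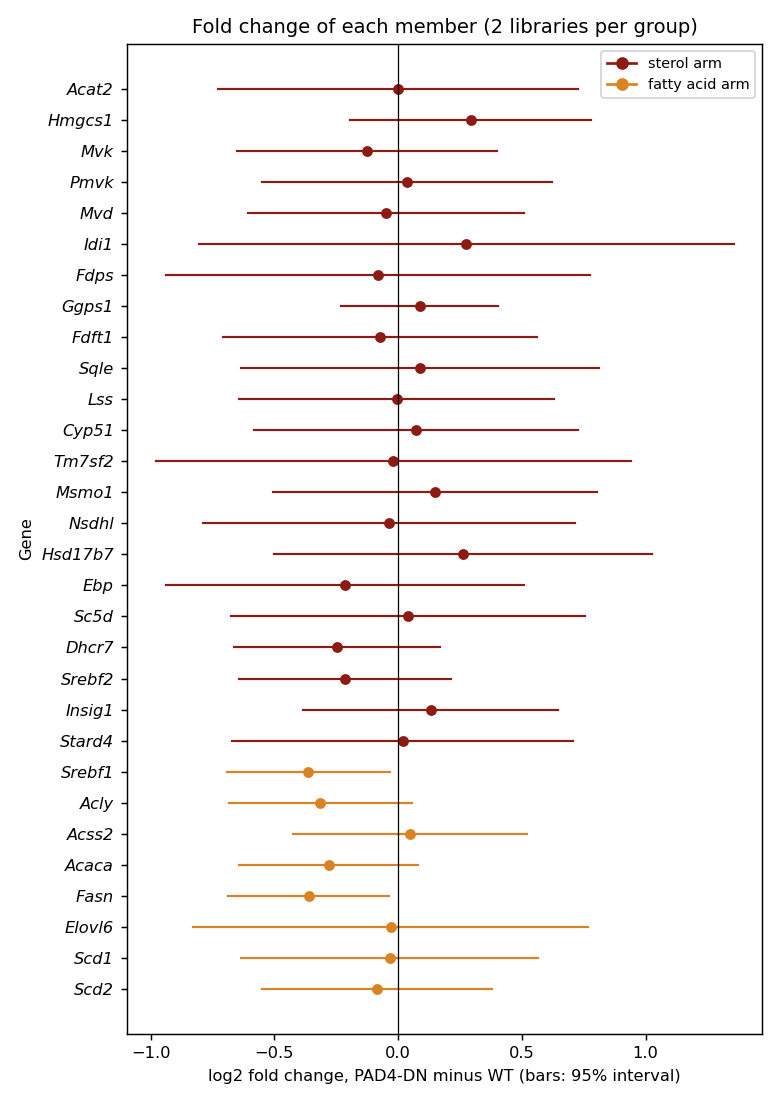
Log2 fold change (PAD4-DN minus WT, horizontal axis) of each of the 30 genes by edgeR, with bars for the 95% interval from the standard error and the degrees of freedom of the fit, 2 libraries per group. Sterol genes lie on both sides of 0 with intervals that cover it, and Srebf1 and Fasn have unadjusted intervals below 0 (−0.69 to −0.034 and −0.69 to −0.036), while no gene passes after adjustment.

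The sterol arm varied more within PAD4-DN than between the genotypes. PAD4-DN replicate 1 was the lowest and PAD4-DN replicate 2 the highest of the 4 libraries for 16 of the 22 sterol genes, against 11.2% of all genes tested. PAD4-DN replicate 2 exceeded PAD4-DN replicate 1 for 21 of 22 sterol genes, by a median ratio of 1.69, beside 48.6% of all genes tested and a median ratio of 0.991 over them. A ratio above the sterol median was found for 4.79% of all genes tested. Within WT the median ratio of replicate 2 to replicate 1 over the sterol genes was 1.12, with replicate 2 above for 17 of 22. Over all genes tested the median ratio within WT was 1.01, with replicate 2 above for 7146 of 13718. These ratios compare pairs of libraries of 1 genotype and carry no test, and the genes were chosen with earlier results of these data known. In bulk samples, fewer cells of a type and less RNA per cell cannot be told apart.

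**Figure D2:**
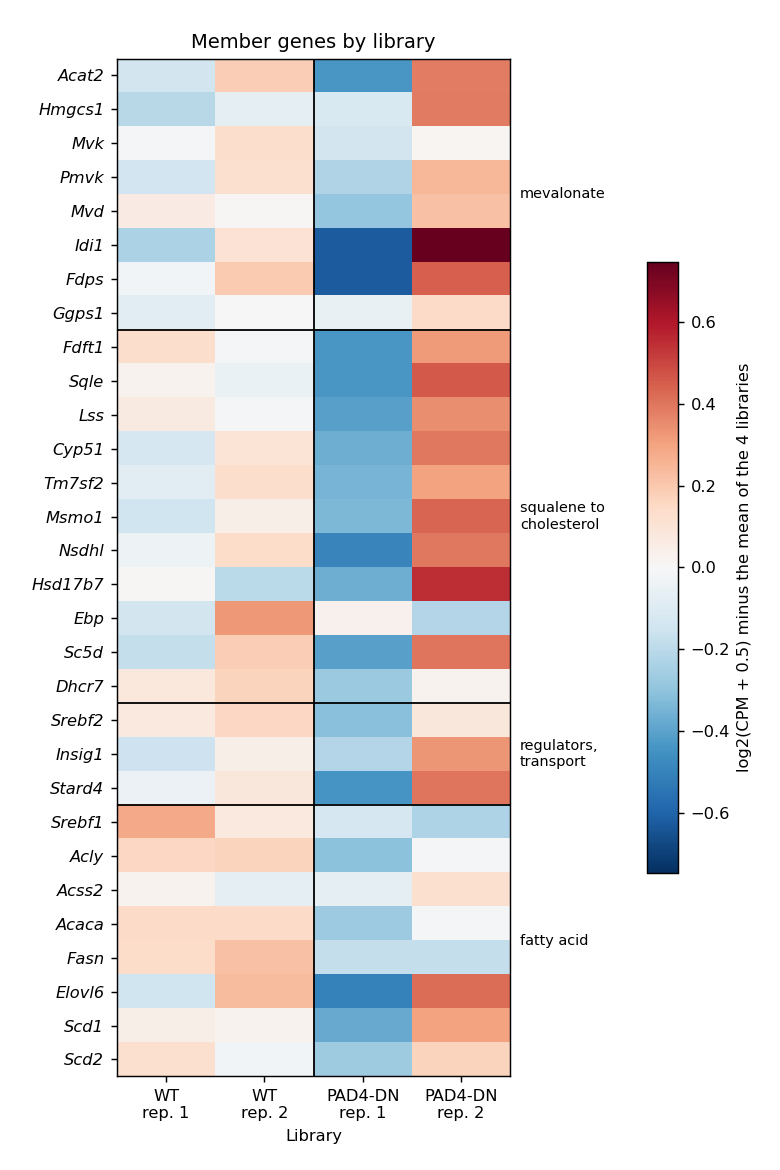
Each row is a gene and each column a library, and the colour gives log2(CPM + 0.5) minus the gene's mean over the 4 libraries, with lines between the mevalonate, squalene to cholesterol, regulator and fatty acid groups. PAD4-DN replicate 1 is the lowest library for 19 of the 22 sterol genes (26.4% of all genes tested) and PAD4-DN replicate 2 the highest for 18 (28.1% of all genes tested), while Srebf1, Acly, Acaca and Fasn have both PAD4-DN values under both WT values.

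The mevalonate steps held the genes with the widest spread among the sterol genes. Idi1, the isomerase that makes the activated isoprene units, was at 77.9 and 98.7 CPM in WT tumours, against 59.6 and 154 CPM in PAD4-DN tumours, a ratio of 2.59 within PAD4-DN. The PAD4-DN libraries were therefore the lowest and the highest of the 4, and the log2 fold change between genotypes was 0.28 (SE 0.43). Fdps, which joins isoprene units to farnesyl diphosphate, was at 76.6 and 88.8 CPM in WT tumours, against 50.4 and 106 CPM in PAD4-DN tumours, again with both extremes in PAD4-DN. The cytosolic thiolase Acat2, the entry to the pathway, was at 40.8 and 51.1 CPM in WT tumours, against 33.0 and 58.7 CPM in PAD4-DN tumours, in the same order of libraries. Hmgcs1, which makes hydroxymethylglutaryl-CoA, differed from these genes: it was at 137 and 151 CPM in WT tumours, against 146 and 207 CPM in PAD4-DN tumours, so that only PAD4-DN replicate 2 stood above the others. Its log2 fold change was 0.29 (SE 0.19), with a 95% interval of −0.19 to 0.78, and its unadjusted p was 0.187. Without PAD4-DN replicate 2 its log2 fold change was 0.015. The kinases Mvk and Pmvk, the decarboxylase Mvd and the geranylgeranyl diphosphate synthase Ggps1 varied less than Idi1, Fdps and Acat2. The ratios within PAD4-DN of Mvk, Pmvk, Mvd and Ggps1 were 1.12, 1.41, 1.44 and 1.15 in this order, beside 1.42 for Hmgcs1. Ggps1, which feeds protein prenylation and not sterol synthesis, lay between 65.1 and 76.0 CPM in all 4 libraries.

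From squalene to cholesterol, 9 of 11 genes had PAD4-DN replicate 1 lowest and PAD4-DN replicate 2 highest. Sqle, the squalene epoxidase that makes the first oxygenated intermediate, was at 137 and 129.9 CPM in WT tumours, against 99.3 and 184 CPM in PAD4-DN tumours. The squalene synthase Fdft1 was at 83.1 and 75.5 CPM in WT tumours, against 56.1 and 94.7 CPM in PAD4-DN tumours. The WT libraries of both genes lay close together, between the PAD4-DN libraries. The lanosterol demethylase Cyp51 was at 113 and 132 CPM in WT tumours, against 95.5 and 162 CPM in PAD4-DN tumours, and Hsd17b7, a sterol ketoreductase, at 50.1 and 43.2 CPM versus 38.6 and 73.1 CPM. Ratios within PAD4-DN were 1.69 for the lanosterol synthase Lss, 1.71 for the methylsterol oxidase Msmo1, 1.87 for the sterol dehydrogenase Nsdhl, 1.75 for the desaturase Sc5d and 1.68 for Tm7sf2. The exceptions were Ebp and Dhcr7. The sterol isomerase Ebp was at 5.76 and 8.09 CPM in WT tumours, against 6.54 and 5.41 CPM in PAD4-DN tumours, from 129 to 204 estimated counts, and had its lowest value in PAD4-DN replicate 2. Dhcr7, the reductase of the last step to cholesterol, was at 20.9 and 22.3 CPM in WT tumours, against 16.2 and 20.2 CPM in PAD4-DN tumours. It was the only sterol gene with both PAD4-DN values under both WT values, against 17.4% of all genes tested, and its TPM values overlapped between the genotypes. No sterol gene had both PAD4-DN values above both WT values, against 15.4% of all genes tested. In either direction, 5 of the 30 members had no overlap between the genotypes, against 32.8% of all genes tested.

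The regulators Srebf2 and Insig1 varied less within PAD4-DN than most of the enzymes. Srebf2 was at 198 and 209 CPM in WT tumours, against 151 and 199 CPM in PAD4-DN tumours, so that PAD4-DN replicate 1 alone was low, and its log2 fold change was −0.21 (SE 0.17). Insig1, itself a target of SREBP and the anchor that holds SCAP in the endoplasmic reticulum, was at 64.9 and 74.4 CPM in WT tumours, against 61.9 and 90.7 CPM in PAD4-DN tumours. The sterol carrier gene Stard4 was at 78.3 and 85.5 CPM in WT tumours, against 59.4 and 106 CPM in PAD4-DN tumours, a ratio of 1.79 within PAD4-DN against 1.32 for Srebf2 and 1.47 for Insig1.

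The fatty acid arm held genes of 2 patterns. In Srebf1, Acly, Acaca and Fasn both PAD4-DN values were under both WT values, which was the case for 4 of 8 genes of the arm against 17.4% of all genes tested. This set and its direction were singled out after the values were seen. In either direction, 32.8% of all genes tested had no overlap between the genotypes. Fasn, the fatty acid synthase, was at 438 and 463 CPM in WT tumours, against 351 and 351 CPM in PAD4-DN tumours. The PAD4-DN libraries had nearly the same value, and the log2 fold change was −0.36 (SE 0.13), with an unadjusted p of 0.0351 and an adjusted p of 0.988 by edgeR. With each library left out in turn it stayed between −0.40 and −0.32. Its sign could hardly change there, since both PAD4-DN values were under both WT values. Srebf1 was at 78.1 and 67.6 CPM in WT tumours, against 58.7 and 54.6 CPM in PAD4-DN tumours, with a log2 fold change of −0.36 (SE 0.13). Acly, the enzyme that makes cytosolic acetyl-CoA from citrate, was at 206 and 208 CPM in WT tumours, against 149.8 and 183 CPM in PAD4-DN tumours, with a log2 fold change of −0.31 (SE 0.15). Acaca, the acetyl-CoA carboxylase of the committed step, was at 239 and 238 CPM in WT tumours, against 179 and 214 CPM in PAD4-DN tumours, with a log2 fold change of −0.28 (SE 0.14). For Acly and Acaca the WT libraries nearly coincided and PAD4-DN replicate 1 was the lowest.

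The lower values of this set depended in part on the scale. On TPM, Acaca was at 63.2 and 65.5 in WT and at 46.0 and 65.9 in PAD4-DN, and the genotypes overlapped. Fasn remained below WT in both PAD4-DN libraries on TPM (70.1 and 79.8 against 61.3 and 59.9), as did Srebf1 (62.3 and 59.8 against 40.2 and 58.1) and Acly (69.5 and 74.2 against 58.0 and 65.2). These 3 of 8 genes compare with 10.5% of all genes tested that were lower without overlap on TPM. In limma-trend on log2(TPM + 1) the log2 fold changes were −0.30 for Fasn, −0.33 for Srebf1, −0.22 for Acly and −0.22 for Acaca, beside a median of 0.063 over all genes in that fit.

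**Figure D3:**
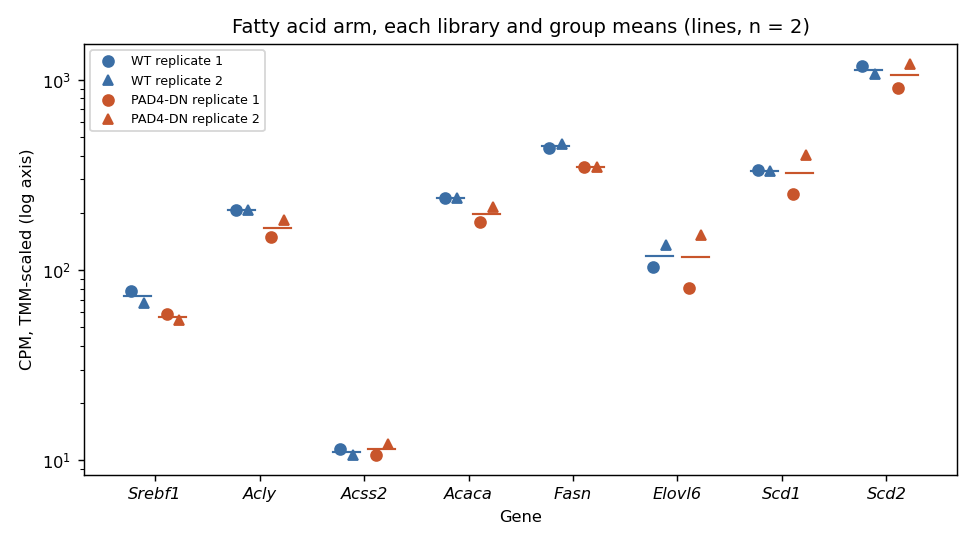
TMM-scaled CPM on a log axis for the 8 genes of the fatty acid arm, with circles for replicate 1, triangles for replicate 2 and lines for the mean of the 2 libraries of each group. The PAD4-DN points of Srebf1, Acly, Acaca and Fasn lie below both WT points, and those of Elovl6, Scd1 and Scd2 lie on either side of them.

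The other 4 genes of the arm had the same lowest and highest library as most sterol genes. Elovl6, which lengthens palmitate, was at 103 and 135 CPM in WT tumours, against 80.6 and 153 CPM in PAD4-DN tumours, a ratio of 1.90 within PAD4-DN. Scd1, which introduces the double bond of oleate, was at 336 and 331 CPM in WT tumours, against 251 and 402 CPM in PAD4-DN tumours, and Scd2 at 1184 and 1074 CPM versus 906 and 1221 CPM. The acetate-activating enzyme Acss2 had the same lowest and highest library with little spread, at 11.5 and 10.7 CPM in WT tumours, against 10.6 and 12.2 CPM in PAD4-DN tumours. These 4 genes were grouped after the values were seen. PAD4-DN replicate 1 was their lowest library and PAD4-DN replicate 2 the highest, against 11.2% of all genes tested. WT replicate 2 was above WT replicate 1 for 1 of the 4, against 17 of 22 sterol genes. The log2 fold changes of the 4 genes ran from −0.086 for Scd2 to 0.048 for Acss2. On TPM Acss2 was at 6.84 and 5.69 in WT and at 7.46 and 7.39 in PAD4-DN, above WT in both libraries, as were 22.9% of all genes tested.

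The arms were then set against each other in each library. As the mean over members of log2(CPM + 0.5), centred on the 4 libraries, the sterol arm was at −0.059 and 0.081 in WT and at −0.33 and 0.31 for PAD4-DN. The fatty acid arm was at 0.096 and 0.097 in WT and at −0.26 and 0.07 for PAD4-DN. Both arms were thus lowest in PAD4-DN replicate 1. In replicate 2 of that group the sterol arm was the highest, while this mean of the fatty acid arm was below WT by a small amount. In summed TPM the fatty acid arm was highest in that library, at 748 against 691 and 700 in WT. Of its 8 genes, 4 were highest in that library by CPM. The sterol level minus the fatty acid level was −0.15 and −0.016 in WT and −0.068 and 0.24 for PAD4-DN. The genotypes overlapped in this difference, whose mean was 0.17 higher in PAD4-DN on the log2 scale, about the size of the SD between replicates (0.17). Without PAD4-DN replicate 2 the difference was 0.017, and without PAD4-DN replicate 1 it was 0.32.

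Single transcripts were compared for the 7 members that divided their reads between at least 2 transcripts with a share of 20% or more in some library. Shares of Acly differed between the PAD4-DN libraries. Its transcript Acly-207 was assigned 641 and 972 counts with WT hosts against 0.0832 and 1194 with PAD4-DN hosts, or 13.7%, 18.5%, 0.00271% and 27.3% of the gene's counts. Acly-201 held 55.8% of the counts in PAD4-DN replicate 1 and from 29.7% to 32.3% in the other libraries. PAD4-DN replicate 1 thus had almost no reads assigned to Acly-207, unlike the other 3 libraries. For Sc5d, transcripts Sc5d-201 and Sc5d-202 kept shares of 54.6% to 58.1% and 41.7% to 45.4% in the 4 libraries, so that both had the library order of the gene. Lss-204, annotated as a retained intron, held 38.3% to 43.9% of the counts of Lss, next to 43.7% to 49.3% in the coding transcript Lss-201. In Tm7sf2 the retained-intron transcript Tm7sf2-215 held 59.8% of the counts in PAD4-DN replicate 1 and 27.0% to 31.5% in the others, from 21.7 to 29.8 estimated counts per library. These splits are kallisto's estimates from reads of 75 cycles and are less certain than the gene totals. Mvk, Fdft1 and Dhcr7 also met the rule, with a second transcript at 7.83% to 29.98%, 15.5% to 22.1% and 12.7% to 26.5% of counts.

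Other genes of lipid metabolism were read from 5 lists, in which no gene passed by edgeR and none had an unadjusted p under 0.05. Of 14 further genes linked to SREBP, 6 had PAD4-DN replicate 1 lowest and PAD4-DN replicate 2 highest, against 11.2% of all genes tested, and their median log2 fold change was −0.035. Among those with the smallest p were Tmem97, a sterol-binding protein of the endoplasmic reticulum (43.6 and 37.8 CPM in WT tumours against 32.0 and 34.5 CPM in PAD4-DN tumours), and the elongase Elovl5 (136 and 117 CPM versus 145 and 153 CPM). Neither had the library order of the sterol arm, since Tmem97 was highest in WT replicate 1 and Elovl5 lowest in WT replicate 2.

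The list of SREBP processing and sterol sensing, which also held the NF-Y genes Nfya, Nfyb and Nfyc, showed no common order of libraries. Its median log2 fold change was 0.036 over 13 genes, with 4 below WT in both PAD4-DN libraries and 2 above, against 17.4% and 15.4% of all genes tested. On TPM none of the 13 was below WT in both PAD4-DN libraries and 2 were above, against 10.5% and 22.9% of all genes tested. Scap, the escort of the SREBP precursors, was at 79.5 and 93.2 CPM in WT tumours, against 72.4 and 64.8 CPM in PAD4-DN tumours, with a log2 fold change of −0.33 (SE 0.14) and an unadjusted p of 0.0538. On TPM it was at 28.0 and 33.3 in WT and at 33.6 and 28.7 in PAD4-DN, and the genotypes overlapped. The retention gene Insig2 was at 52.4 and 43.3 CPM in WT tumours, against 51.4 and 55.1 CPM in PAD4-DN tumours, and the ubiquitin ligase Rnf145 at 128 and 132 CPM versus 125 and 116 CPM.

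Of 7 genes in the list of cholesterol efflux and LXR targets, 5 were highest in PAD4-DN replicate 1, against 3796 of all 13718 genes tested. Most sterol genes were lowest in that library. Of the other efflux genes, 1 was highest in WT replicate 1 and 1 in WT replicate 2. LXR is the nuclear receptor that senses excess sterol. Abca1, which exports cholesterol and was named after its values were seen, was at 3.91 and 6.03 CPM in WT tumours, against 11.6 and 2.52 CPM in PAD4-DN tumours. By the rule for names, the ubiquitin ligase gene Mylip was at 16.1 and 11.9 CPM in WT tumours, against 20.4 and 16.1 CPM in PAD4-DN tumours, the exporter Abcg1 at 0.44 and 0.595 CPM versus 1.12 and 0.755 CPM, and Arl4c at 228 and 189.7 CPM versus 241 and 221 CPM. Macrophages express Abca1 and Abcg1 too, and the macrophage markers were also highest in PAD4-DN replicate 1; the part of those cells in these values was not tested.

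The medians of uptake, storage and oxidation genes varied less among the libraries than that of the sterol arm. In the list of uptake, lysosomal release and storage, with a median log2 fold change of 0.15 over 8 genes, the lipoprotein receptor Scarb1 was at 30.9 and 35.6 CPM in WT tumours, against 22.6 and 28.2 CPM in PAD4-DN tumours. The lysosomal lipase Lipa was at 118 and 109 CPM versus 132 and 139 CPM, and the lysosomal membrane protein Lamp2 at 288 and 318 CPM versus 352 and 374 CPM. Both PAD4-DN values were under both WT values for 1 of the 8 genes, Scarb1, against 17.4% of all genes tested. They were above both WT values for 2, Lipa and Lamp2, against 15.4% of all genes tested. On TPM the genotypes overlapped for Scarb1, and Lipa and Lamp2 stayed above WT in both PAD4-DN libraries. In all, 4 of the 8 genes were above and 0 below on TPM, against 22.9% and 10.5% of all genes tested. The 11 fatty acid oxidation genes had a median of 0.071, and 7 of them were highest in PAD4-DN replicate 1, against 3796 of all 13718 genes tested. Among them Acads was at 20.4 and 24.0 CPM in WT tumours, against 18.9 and 16.9 CPM in PAD4-DN tumours, Acadvl at 46.4 and 45.1 CPM versus 46.1 and 34.1 CPM, and Hadhb at 62.0 and 70.7 CPM versus 77.0 and 66.7 CPM.

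**Figure D4:**
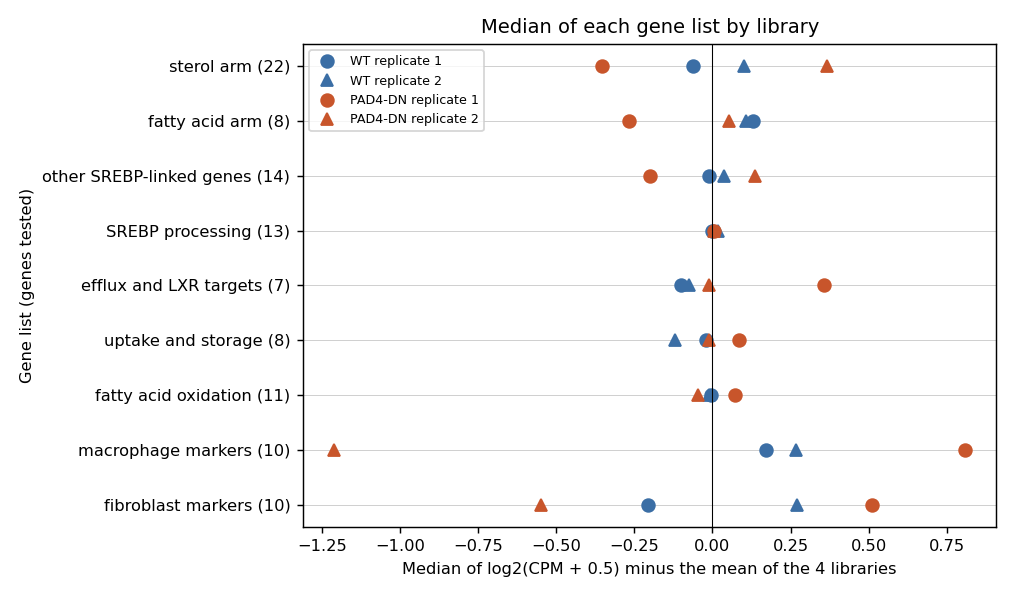
Median of log2(CPM + 0.5) minus the mean of the 4 libraries (horizontal axis) for each gene list, with 1 point per library (colour for genotype, shape for replicate) and the number of genes tested in brackets. The sterol arm runs from −0.36 in PAD4-DN replicate 1 to 0.37 in PAD4-DN replicate 2. The median of the SREBP processing list, which includes NF-Y genes, stays near 0. The macrophage markers have the PAD4-DN libraries at reversed ends, 0.81 in replicate 1 and −1.21 in replicate 2. In both lists WT replicate 1 lies below WT replicate 2.

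The macrophage and monocyte markers mostly had the PAD4-DN libraries at the reverse ends from the sterol genes. All 10 were lowest in PAD4-DN replicate 2, and 9 of 10 were highest in PAD4-DN replicate 1. Of the 13718 genes tested, 3955 were lowest in PAD4-DN replicate 2 and 3796 highest in PAD4-DN replicate 1. Lyz2, a lysozyme of myeloid cells, was at 20.4 and 22.9 CPM in WT tumours, against 50.9 and 4.99 CPM in PAD4-DN tumours. The summed erythroid and platelet markers were at 41.5 and 4.997 CPM in WT tumours, against 137 and 4.53 CPM in PAD4-DN tumours, and the endothelial markers at 41.3 and 33.7 CPM versus 69.5 and 35.6 CPM. The fibroblast markers, at 9136 and 10860 CPM in WT tumours, against 14533 and 8594 CPM in PAD4-DN tumours, held mostly counts of Col3a1, at 7405 and 8248 CPM versus 11641 and 6564 CPM. Col1a2 of the same list was at 0.879 and 404 CPM versus 467 and 3.94 CPM, so the sum did not follow all fibroblast markers. Which cells the Col3a1 counts came from was not tested. The sums of macrophage, erythroid and platelet, endothelial and fibroblast markers were thus each highest in PAD4-DN replicate 1. Single fibroblast markers differed, and 6 of 10 were highest in that library. Lum had the order of the sterol genes, at 425 and 442 CPM in WT versus 343 and 681 CPM in PAD4-DN. The endothelial sum was lowest in WT replicate 2. The neutrophil markers summed to 17.1 and 7.30 CPM versus 20.9 and 9.98 CPM, and the lymphocyte and pan-leukocyte markers to 4.18 and 4.68 CPM versus 9.47 and 2.47 CPM. The part of these cells in the sterol values was not tested.

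Markers of cells known for high lipid synthesis were low or absent. The 9 adipocyte markers summed to at most 11.4 CPM in any library, with Cidec and Lep at 0 counts in every library and Adipoq at 2 counts in PAD4-DN replicate 2 and 0 elsewhere. Lipe of this list was at 4.53 and 3.65 CPM in WT tumours, against 6.39 and 3.69 CPM in PAD4-DN tumours. The 3 adipocyte markers tested, Lipe, Fabp4 and Pparg, were each highest in PAD4-DN replicate 1, against 3796 of 13718 genes tested. The part of such cells in the lipid gene values was not tested. The 8 sebaceous gland markers summed to at most 2.00 CPM, with Awat1, Fa2h and Krt79 at 0 in every library. A count of 0 allows up to 3 counts, for counting error only. Skeletal muscle markers summed to 2.98 to 3.32 CPM and the epithelial markers to 322 to 408 CPM.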

How the data were processed

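Estimated counts and TPM per transcript were deposited by the authors in 1 table per library, made with kallisto on build GRCm39 per the submitters' processing notes; for its version, annotation and settings the sources used here give nothing. By the labels' protocols, 100 ng of total RNA went into poly-A, strand-specific libraries with 13 PCR cycles and single-end reads of 75 cycles. Of 117486 transcripts, 116408 had a gene in GENCODE M21 under their identifier without version; the 1078 others, with 0.483% to 0.493% of counts, were not used. Gene values are sums of estimated counts, rounded.

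PAD4-DN was compared with WT by edgeR 4.0.16 in R 4.3.3 (TMM, filterByExpr, quasi-likelihood test, Benjamini-Hochberg adjustment over 13718 genes at 0.05), without a replicate block. Intervals (95%) use the standard error implied by the F statistic. Levels are log2(CPM + 0.5). The alternatives were DESeq2 1.42.0, its size factors in edgeR, limma 3.58.1 (voom, and trend on log2(TPM + 1)), other filters, effective length offsets, a replicate block and each library left out; scripts were tested on simulated data. The members and lists were chosen with earlier results of these data known. All 30 members are named, the 3 genes with the smallest p of each other pathway list, but for 1 gene that is not reported here, and transcripts of members with at least 2 transcripts holding 20% of counts in any library. Promoters are from RefSeq (GRCm38.p6). Without molecular identifiers, PCR copies cannot be recognised, and limits from counts speak only of counting error.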

Additional observations from a re-analysis of the deposited data

How the results depend on the processing

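With 2 libraries per group, the median standard error over members was 0.25 on the log2 scale, and no difference among members passed. Over all genes 0 passed by edgeR, 11 with DESeq2, 10 without the low-count filter and 0 to 2 with 1 library left out. No member passed under any alternative run, where the smallest adjusted p of a member ran from 0.662 to 1.000. With all libraries 2 members, Fasn and Srebf1, had an unadjusted p under 0.05 by edgeR. Over all genes this number was 364 of 13718. With limma-trend on log2(TPM + 1) it was 0 members, beside 388 of 12044 genes. It was 1 member with effective length offsets and 1 with the replicate block, beside 392 and 309 of 13718 genes. The crossed block described last gave 0 members, beside 412 of 13718 genes. Numbers under this p are not compared for the fits with 1 library left out, where 1 group has a lone library. The sterol median ran from −0.42 to 0.34 and the fatty acid median from −0.39 to −0.031 with 1 library left out, where the lone library of a group is assumed to vary like the other group. The low end of both came without PAD4-DN replicate 2 and the high end without PAD4-DN replicate 1. The sterol minus fatty acid difference ran from 0.017 to 0.32 over the same settings. Fasn, Srebf1, Acly, Acaca, Dhcr7, Srebf2, Mvk and Hmgcs1 kept their sign without each library, with ranges of −0.40 to −0.32 for Fasn, −0.47 to −0.25 for Srebf1, −0.47 to −0.18 for Acly, −0.42 to −0.17 for Acaca, −0.42 to −0.11 for Dhcr7, −0.43 to −0.036 for Srebf2, −0.21 to −0.053 for Mvk, 0.015 to 0.51 for Hmgcs1. Of these, Hmgcs1 was lowest without PAD4-DN replicate 2, and Acly, Acaca, Dhcr7 and Srebf2 were nearest 0 without PAD4-DN replicate 1. Fasn, Srebf1, Acly, Acaca and Dhcr7 had both PAD4-DN values under both WT values, so their sign could hardly change in these runs. The other 22 members changed sign in at least 1 case; the log2 fold changes of these ran as follows: Acat2 −0.48 to 0.35, Pmvk −0.24 to 0.25, Mvd −0.34 to 0.18, Idi1 −0.57 to 0.80, Fdps −0.72 to 0.35, Ggps1 −0.021 to 0.17, Fdft1 −0.51 to 0.25, Sqle −0.43 to 0.46, Lss −0.44 to 0.31, Cyp51 −0.36 to 0.40, Tm7sf2 −0.45 to 0.30, Msmo1 −0.29 to 0.48, Nsdhl −0.57 to 0.33, Hsd17b7 −0.28 to 0.64, Ebp −0.44 to 0.049, Sc5d −0.43 to 0.38, Insig1 −0.18 to 0.37, Stard4 −0.47 to 0.37, Acss2 −0.063 to 0.14, Elovl6 −0.57 to 0.35, Scd1 −0.42 to 0.26, Scd2 −0.32 to 0.10.

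With all 4 libraries, 8 members changed sign under another setting, and the cause was not tested. Acat2 was at 0.0075 with DESeq2, 0.0079 with its size factors, 0.016 at a mean of at least 5 CPM and 0.023 on log2(TPM + 1). Lss was at 0.0017, 0.0020, 0.011 and 0.11 under the same settings, and at 0.11 with effective length offsets. On log2(TPM + 1) Mvd was at 0.00084, Ggps1 at −0.057, Stard4 at −0.016, Elovl6 at 0.036 and Scd1 at 0.0091. With effective length offsets Ggps1 was at −0.13, Stard4 at −0.053 and Elovl6 at 0.0067. With limma-voom Sc5d was at −0.0061 and Stard4 at −0.040.

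With the replicate number as a block, 0 genes passed, the sterol median was −0.045 and the fatty acid median −0.19, and Sc5d was at −0.0049 and Stard4 at −0.040. Between libraries of equal number, deviations from the group means correlated at −0.34 over 13718 genes. For the sterol genes alone, replicate 2 was above replicate 1 for 21 of 22 in PAD4-DN and for 17 of 22 in WT. Whether libraries of equal number shared handling was not tested. A block with crossed numbers, chosen after seeing the data, gave 0 genes and 0 members. Its smallest adjusted p by edgeR was 0.0505 over all genes, just above the threshold of 0.05, and 0.994 among members.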
